A study of Mus musculus with 12 samples.

Results

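The tropomyosins Tpm1, Tpm2, Tpm3 and Tpm4 and the contractile genes Acta2, Tagln, Tagln2, Cnn1, Myh11 and Myl9 were followed across mouse lung adenocarcinomas of 3 lines. A probe set was taken for a gene when that gene was its only annotated symbol. The rule gave 25 probe sets of 34945 with 1 symbol, and 10 genes of 18193. Where a gene had several, the one brightest on average across all 12 arrays led it, and the other 15 probe sets are described beside it. All 10 genes were tested, with no filter on dim probe sets.

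Lines were grown from tumour tissue of p53R172H∆g/+ K-rasLA1/+ mice, which carry a mutant p53 allele and an activated K-ras allele. The 344SQ line came from a subcutaneous site of mouse 344 and is called highly metastatic. The 393LN line came from a mediastinal lymph node of mouse 393 and is called intermediately metastatic. The 393P line came from a primary lung tumour of the same mouse and is called non-metastatic. All 3 lines share both alleles and are uncloned populations kept in serial culture. Each line was grown as tumours in syngeneic mice, and 4 tumour samples per line were hybridised to Affymetrix mouse expression arrays. The age of the mice is not given. The 344SQ line and its mouse of origin cannot be told apart in any comparison with the 393 lines. The samples are not stated to come from separate animals, so p-values measure only the spread between these samples, which may be technical.

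Tropomyosins are coiled-coil proteins that lie end to end along actin filaments and control which myosins and other proteins bind there. Each tropomyosin gene makes several isoforms through alternative promoters and exons, some typical of muscle and some found in most cells. The contractile genes studied here are used in pathology and cell biology to mark smooth muscle, pericytes and the myofibroblasts of tumour stroma, and carcinoma cells can express several of them as well. Many genes of this kind are switched on by serum response factor, which binds a DNA motif called the CArG box.

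Tpm2 was the gene that differed between lines, and Myl9 was the gene with an exact CArG box among the promoters searched. The 250 bases before their RefSeq start sites are therefore shown. They are from GRCm38.p6, read 5′ to 3′ on the strand of the gene, at chr4:43523555-43523804 (minus strand) for Tpm2 and chr2:156775214-156775463 (plus strand) for Myl9. Capitals mark the CArG box.
Tpm2: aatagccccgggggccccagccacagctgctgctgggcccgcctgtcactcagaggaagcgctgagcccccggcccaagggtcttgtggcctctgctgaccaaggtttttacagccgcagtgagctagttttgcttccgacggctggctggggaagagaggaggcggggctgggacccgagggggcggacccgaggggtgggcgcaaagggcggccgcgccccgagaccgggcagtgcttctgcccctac
Myl9: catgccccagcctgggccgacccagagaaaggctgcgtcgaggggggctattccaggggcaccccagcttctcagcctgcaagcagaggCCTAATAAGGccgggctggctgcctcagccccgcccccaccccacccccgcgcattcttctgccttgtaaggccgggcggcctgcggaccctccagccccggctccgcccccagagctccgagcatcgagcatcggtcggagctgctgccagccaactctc
Promoters of 8 of the 10 genes were in the RefSeq table, each with 250 bases before and 50 after the start. Tagln and Myh11 had no promoter there and were not searched. The search was for exact CArG boxes, a motif that reads the same on both strands, and 1 of the 8 genes had a match. Sites that depart from the motif by a base were not counted. The match in Myl9 began 161 bases before the start. Of all 27025 genes in the table, 488 had a match, or 1.81%. The 8 genes had 9 promoters, and of all 32851 promoters of this length 535 held a match, or 1.63%. A match is a string of letters and not a measured binding site.

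Values are log2(intensity + 16), where the intensity is the deposited value of a probe set. A change is the difference of 2 line means on this scale, which understates changes of dim genes. Changes were tested with limma, with Benjamini-Hochberg adjustment over all 18193 genes, and were called at an adjusted p under 0.05. Probe sets that did not lead a gene were tested in a second limma fit, adjusted over all 34945 probe sets. Array medians lay between 7.19 and 7.29 on the scale of log2 intensity, without the added 16. The actin 3′ to 5′ ratio, a sign of RNA integrity, reached 1.47 on 393P replicate 1, and the remaining 11 arrays lay at 1.04 to 1.19. The epithelial keratin Krt8 averaged 13.98 in 344SQ, 13.81 in 393LN and 13.98 in 393P tumours, while the lung lineage factor Nkx2-1 averaged 4.24, 4.18 and 4.15 in the same order, close to the table's floor of 4.09. Other markers of these identities differed between lines: the epithelial adhesion protein Epcam averaged 9.63 in 344SQ, 13.27 in 393LN and 13.45 in 393P tumours, and the surfactant protein gene Sftpb averaged 12.83, 7.52 and 7.60. In whole tumours, fewer cells of a type and less RNA per cell cannot be told apart.

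Tpm2 was the gene of the 10 that passed the test, and it did so between 344SQ and 393P tumours. It was 2.66-fold lower in 344SQ tumours, with the 393LN mean lying between the other line means. Between 344SQ and 393P tumours, 0 of the 10 genes were higher and 1 was lower, against 4.86% of all genes higher and 5.62% lower (10.5% called). Between 344SQ and 393LN tumours, 0 were higher and 0 lower in limma, against 3.99% of all genes higher and 6.92% lower (10.9% called). Between 393LN and 393P tumours, 0 were higher and 0 lower in limma, against 1.75% of all genes higher and 0.698% lower (2.45% called). At an unadjusted limma p under 0.05 the counts were 4, 1 and 2 of the 10 in these comparisons. The share of all genes at that unadjusted threshold was not computed, so these counts show no excess or lack. The median change of the 10 genes was -0.17, 0.04 and -0.19 in these comparisons, beside -0.00, -0.02 and 0.01 over all genes. The comparisons share samples in pairs, so they are not independent of one another.

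**Figure D1:**
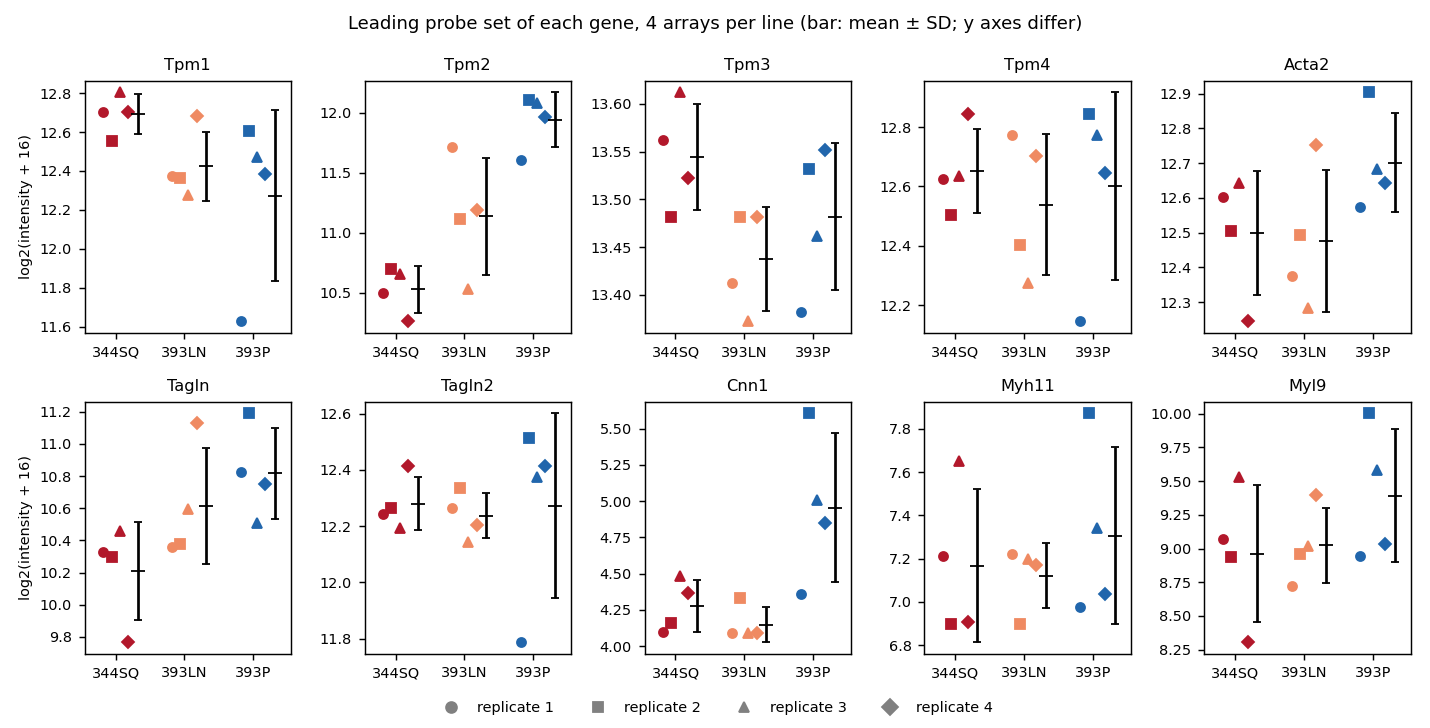
Value of the leading probe set, log2(intensity + 16), of each of the 10 genes on 4 arrays each of 344SQ, 393LN and 393P tumours; markers show replicates, bars the mean ± SD, and the y axes differ between panels. Tpm2 has no overlap between 344SQ (10.26 to 10.69) and 393P (11.61 to 12.11), while Tpm3, Tpm4, Acta2 and Tagln2 overlap between all 3 lines.

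Tpm2 encodes beta-tropomyosin, a muscle isoform that is also made in fibroblasts and many other cells. Its leading probe set, 1419738_a_at, read 10.50, 10.69, 10.65 and 10.26 in 344SQ tumours. It read 11.72, 11.11, 10.53 and 11.19 in 393LN tumours and 11.61, 12.11, 12.08 and 11.97 in 393P tumours. Every 344SQ value was below every 393P value, while the 393LN values ran from within the 344SQ range to within the 393P range. The means were 10.53 ± 0.20 in 344SQ, 11.14 ± 0.49 in 393LN and 11.94 ± 0.23 in 393P tumours (SD, n = 4 each). The change of 344SQ against 393P was -1.41 (SE 0.22, interval -1.88 to -0.94, limma adjusted p = 0.0014). Leaving out any 1 of the 12 arrays kept it between -1.52 and -1.32, with adjusted p between 0.000387 and 0.00656.

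The nodal line stood between the other lines in mean, but neither of its differences passed the test with all arrays. The Tpm2 difference of 344SQ against 393LN tumours was -0.61 (interval -1.08 to -0.14, limma adjusted p = 0.0941). That of 393LN against 393P tumours was -0.80 (interval -1.27 to -0.33, limma adjusted p = 0.0759). Which 393LN array was used decided both calls. Without 393LN replicate 3, the lowest of its line, 344SQ against 393LN was -0.81 (adjusted p = 0.0217), and 393LN against 393P was -0.60. Without 393LN replicate 1, the highest, 344SQ against 393LN was -0.42 (adjusted p = 0.202) and 393LN against 393P was -0.996 (adjusted p = 0.0242).

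The highest 393LN array was also the one with the highest skeletal muscle markers. Skeletal muscle uses Tpm1 and Tpm2 in its thin filaments. Over 16 skeletal muscle markers 393LN replicate 1 had a mean value of 9.28 and summed intensities of 14111. The remaining 393LN arrays had means of 7.03 to 7.31 and sums of 2926 to 3451. The mean was 6.71 to 7.90 on 344SQ arrays and 7.13 to 7.91 on 393P arrays. Of the 16 markers, 15 were at their highest of all 12 arrays on 393LN replicate 1, and none was at the floor. On 393LN replicate 1 Tpm1 read 12.37, beside a line mean of 12.42. On 344SQ replicate 4 the muscle marker mean was 7.80, and Tpm2 read 10.26, its lowest of all 12 arrays. The part of muscle RNA in the Tpm2 values was not tested. In limma, 0 of the 16 markers were called in each comparison, against 10.5% of all genes in 344SQ against 393P, 10.9% in 344SQ against 393LN and 2.45% in 393LN against 393P. Their median changes were -0.05, -0.22 and 0.27 in that order.

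Tpm2 had 3 further probe sets, of which 2 showed the same order of lines and 1 did not. Probe set 1425028_a_at read 9.91, 9.93, 10.15 and 9.18 in 344SQ, 11.56, 10.67, 10.11 and 10.83 in 393LN, and 11.28, 11.90, 11.84 and 11.74 in 393P tumours. Probe set 1449577_x_at read 8.40, 8.33, 8.32 and 7.71 in 344SQ, 10.38, 8.50, 9.05 and 8.90 in 393LN, and 9.30, 10.48, 10.45 and 10.00 in 393P tumours. In both, all 344SQ values lay below all 393P values, and 393LN replicate 1 was the highest of its line. They were 3.71-fold and 3.64-fold lower in 344SQ than in 393P tumours (changes of -1.89 and -1.86, limma adjusted p = 0.00187 and 0.0101).

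For 344SQ against 393LN the same probe sets had differences of -0.999 (adjusted p = 0.0557) and -1.01 (adjusted p = 0.128). For 393LN against 393P the differences were -0.89 (adjusted p = 0.149) and -0.85 (adjusted p = 0.317). These limma values have the sign of the leading probe set and did not pass the test. In 1449577_x_at all 344SQ values lay below all 393LN values, while in 1425028_a_at the 344SQ and 393LN values overlapped. Of all genes, 10.7% were lower without overlap in 344SQ against 393LN. Without 393LN replicate 1, 1449577_x_at was -0.62 for 344SQ against 393LN and -1.24 for 393LN against 393P. Without 393LN replicate 3, 1425028_a_at was -1.23 for 344SQ against 393LN (adjusted p = 0.0276). The fourth probe set, 1419739_at, read 8.87 to 9.23 in 344SQ, 8.71 to 9.11 in 393LN and 8.96 to 9.19 in 393P tumours. Its lines overlapped throughout, with changes of -0.08, 0.14 and -0.21 for 344SQ against 393P, for 344SQ against 393LN and for 393LN against 393P (limma adjusted p = 0.800, 0.554 and 0.452). It is annotated to the same transcript as 1419738_a_at and 1449577_x_at, so the probe sets of that transcript disagree. The suffix _a_at marks a probe set that detects several transcripts of a gene, and _x_at one whose probes may also bind other transcripts. Of the 15 probe sets that did not lead a gene, the 344SQ against 393P test called 0 higher and 2 lower, both of Tpm2, against 3.85% of all probe sets higher and 3.77% lower. None of the 15 was called in limma for 344SQ against 393LN, where 2.76% of all probe sets were higher and 4.66% lower. None was called for 393LN against 393P, where 1.38% were higher and 0.432% lower.

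**Figure D2:**
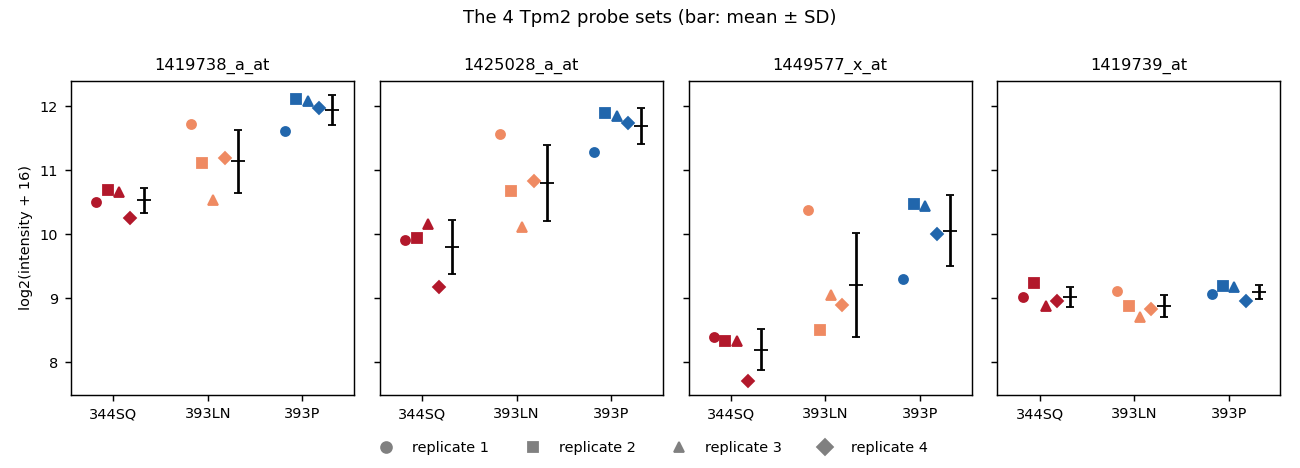
Value, log2(intensity + 16), of the 4 Tpm2 probe sets on 4 arrays each of 344SQ, 393LN and 393P tumours; markers show replicates and bars the mean ± SD. In 3 probe sets the 344SQ values lie below all 393P values, and in 1419739_at the lines overlap.

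Tpm1 encodes alpha-tropomyosin, a main tropomyosin of striated and smooth muscle that also has non-muscle isoforms. Its leading probe set, 1423721_at, read 12.70, 12.55, 12.80 and 12.70 in 344SQ, 12.37, 12.36, 12.27 and 12.68 in 393LN, and 11.63, 12.60, 12.47 and 12.38 in 393P tumours. The 344SQ values were high and close together, and 393P replicate 1 was the lowest of the 12. The change of 344SQ against 393P was 0.42 (interval 0.01 to 0.82, limma adjusted p = 0.196), and 0.20 without 393P replicate 1. For 344SQ against 393LN it was 0.27 (adjusted p = 0.411), and for 393LN against 393P it was 0.15 (adjusted p = 0.770), or -0.06 without 393P replicate 1.

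The low value of 393P replicate 1 was lower still in another bright probe set of Tpm1, shown because it had the widest range of the gene. Probe set 1423049_a_at read 12.26, 11.996, 12.19 and 12.23 in 344SQ, 11.84, 11.65, 11.71 and 12.10 in 393LN, and 9.79, 12.10, 12.03 and 11.78 in 393P tumours. Its change of 344SQ against 393P was 0.75 (limma adjusted p = 0.333), and 0.21 without 393P replicate 1. The array with the low value is the one with the actin 3′ to 5′ ratio of 1.47, whose part in these values was not tested. The dimmer probe sets 1456623_at and 1447713_at read 9.72 and 6.68 on 393P replicate 1, within the range of the other 393P arrays. They had differences of -0.12 and -0.36 for 344SQ against 393P (limma adjusted p = 0.775 and 0.504). The 4 Tpm1 probe sets therefore differ in sign, and none passed the test.

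Tpm3 encodes the slow-muscle tropomyosin and, from another promoter, small isoforms found in nearly all cells. Its leading probe set, 1436958_x_at, read 13.56, 13.48, 13.61 and 13.52 in 344SQ, 13.41, 13.48, 13.37 and 13.48 in 393LN, and 13.38, 13.53, 13.46 and 13.55 in 393P tumours. The lines overlapped, and this was the tightest of the 10 genes, with an SD of 0.05 to 0.08 within a line. Its changes were 0.06 for 344SQ against 393P (interval -0.12 to 0.25), 0.11 for 344SQ against 393LN (interval -0.08 to 0.29) and -0.04 for 393LN against 393P (interval -0.23 to 0.14). The limma adjusted p was 0.735, 0.472 and 0.867.

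Probe set 1427567_a_at, the Tpm3 probe set with the widest range, was also low on 393P replicate 1. It read 12.46, 12.11, 12.49 and 12.58 in 344SQ, 12.09, 12.12, 12.33 and 12.19 in 393LN, and 9.65, 12.44, 12.30 and 12.30 in 393P tumours. Without 393P replicate 1 its change of 344SQ against 393P was 0.06, against 0.74 with it (limma adjusted p = 0.460). The remaining Tpm3 probe sets, 1427260_a_at, 1449996_a_at and 1449997_at, had differences of 0.06, -0.30 and 0.13 for 344SQ against 393P, and none passed the test.

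**Figure D3:**
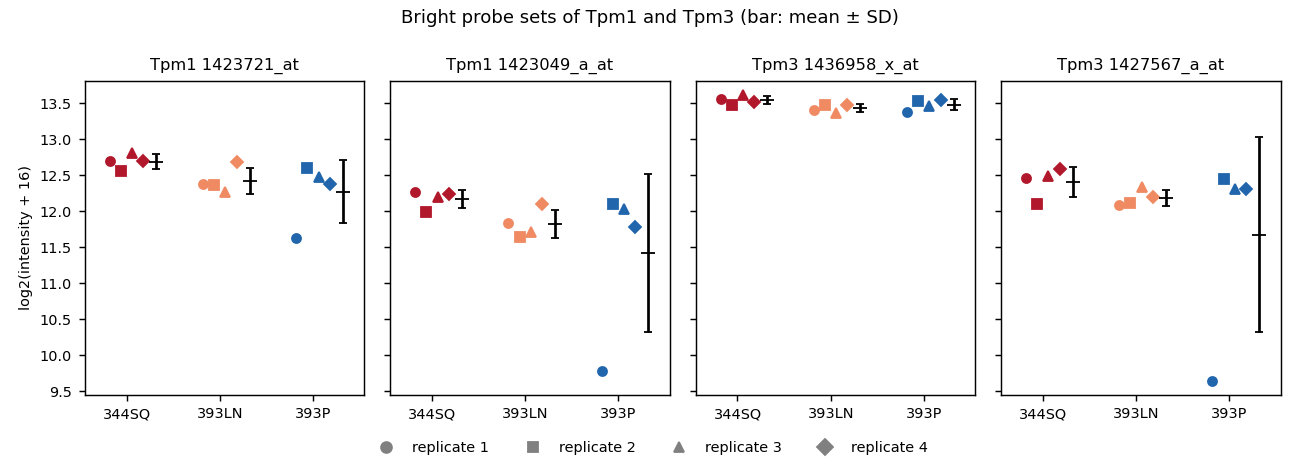
Value, log2(intensity + 16), of 2 probe sets each of Tpm1 and Tpm3 on 4 arrays each of 344SQ, 393LN and 393P tumours; markers show replicates and bars the mean ± SD. In Tpm1 1423049_a_at and Tpm3 1427567_a_at the 393P replicate 1 values of 9.79 and 9.65 lie apart from all other arrays.

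Tpm4, whose main product is a small non-muscle tropomyosin linked to stress fibres, had 1 probe set. It read 12.62, 12.50, 12.63 and 12.84 in 344SQ, 12.77, 12.40, 12.27 and 12.70 in 393LN, and 12.15, 12.84, 12.77 and 12.64 in 393P tumours. All 3 lines overlapped. Its changes were 0.05, 0.11 and -0.06 for 344SQ against 393P, for 344SQ against 393LN and for 393LN against 393P (limma adjusted p = 0.908, 0.731 and 0.914). The interval for 344SQ against 393P ran from -0.31 to 0.41.

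Acta2, the smooth muscle actin that marks myofibroblasts and mural cells, was not called between lines. Its leading probe set read 12.60, 12.50, 12.64 and 12.24 in 344SQ, 12.37, 12.49, 12.28 and 12.75 in 393LN, and 12.57, 12.90, 12.68 and 12.64 in 393P tumours. The lines overlapped, with 344SQ replicate 4 the lowest of the 12. Its changes were -0.20 for 344SQ against 393P (interval -0.49 to 0.08), 0.02 for 344SQ against 393LN (interval -0.26 to 0.31) and -0.22 for 393LN against 393P (interval -0.51 to 0.06). The limma adjusted p was 0.408, 0.941 and 0.460. The probe set is 1416454_s_at, a suffix for probes shared by several genes, so related actins may add to it. The dim probe sets 1444105_at and 1456658_at lay between 5.06 and 6.46 on all 12 arrays and were not called.

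Tagln encodes transgelin (SM22), an actin-binding protein of smooth muscle and a common marker of contractile fibroblasts. It read 10.33, 10.30, 10.46 and 9.77 in 344SQ, 10.36, 10.38, 10.60 and 11.13 in 393LN, and 10.82, 11.19, 10.51 and 10.75 in 393P tumours. All 344SQ values were below all 393P values, and the 393LN values overlapped with both. The change of 344SQ against 393P was -0.61 (interval -1.06 to -0.15, limma adjusted p = 0.0895). It was -0.40 for 344SQ against 393LN (adjusted p = 0.250) and -0.20 for 393LN against 393P (adjusted p = 0.718). Leaving out 393LN replicate 4 gave -0.23 and -0.37 for these, and leaving out 393P replicate 2 gave -0.079 for 393LN against 393P. Tagln and Tpm2 were the 2 genes of the 10 with no overlap between 344SQ and 393P, both lower, against 8.62% of all genes lower without overlap and 8.12% higher.

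Cnn1 encodes calponin, an inhibitor of actomyosin found in differentiated smooth muscle. It was near the floor, at 4.10, 4.16, 4.49 and 4.36 in 344SQ, 4.09, 4.33, 4.09 and 4.09 in 393LN, and 4.36, 5.61, 5.01 and 4.85 in 393P tumours. Of the 4 393LN arrays, 3 were at the floor, and 393P held the 3 highest values. The change was -0.81 for 393LN against 393P (limma adjusted p = 0.0684) and -0.68 for 344SQ against 393P (adjusted p = 0.0617). Without 393P replicate 1 they were -1.005 (adjusted p = 0.0205) and -0.88 (adjusted p = 0.0101), so 1 array decided both calls. Their size near the floor followed the pseudocount: with 1 in place of 16 they were -2.52 and -1.85, and with 64 they were -0.28 and -0.24. For 344SQ against 393LN the change was 0.13 (adjusted p = 0.758). Cnn1 was the 1 gene of the 10 with no overlap between 393LN and 393P, where it was lower, against 3.57% of all genes lower without overlap and 6.69% higher. Between 344SQ and 393LN, 0 of the 10 genes were without overlap, against 10.7% of all genes lower and 6.72% higher.

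Myh11 and Myl9, the heavy chain and the regulatory light chain of smooth muscle myosin, spanned up to 0.90 and 1.23 within a line, wider than any difference between their line means. Myh11 read 7.21, 6.90, 7.65 and 6.91 in 344SQ, 7.22, 6.90, 7.20 and 7.17 in 393LN, and 6.98, 7.87, 7.34 and 7.04 in 393P tumours. Its changes were -0.14, 0.05 and -0.18 for 344SQ against 393P, for 344SQ against 393LN and for 393LN against 393P (limma adjusted p = 0.768, 0.926 and 0.754). All lines overlapped, and a second, near-floor probe set, 1418122_at, was between 4.09 and 4.83.

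Myl9 read 9.07, 8.94, 9.53 and 8.30 in 344SQ, 8.73, 8.96, 9.02 and 9.39 in 393LN, and 8.95, 10.00, 9.58 and 9.03 in 393P tumours. Its changes were -0.43, -0.06 and -0.37 in the same comparisons (limma adjusted p = 0.406, 0.924 and 0.592). The lines overlapped, and the 344SQ values alone spanned 1.23. The interval for 344SQ against 393P ran from -1.03 to 0.18. Without 344SQ replicate 4 that change was -0.21, and without 393P replicate 2 the change of 393LN against 393P was -0.16.

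Tagln2, a transgelin found in many cell types, overlapped between all 3 lines. It read 12.24, 12.26, 12.19 and 12.41 in 344SQ, 12.26, 12.33, 12.15 and 12.20 in 393LN, and 11.79, 12.51, 12.37 and 12.41 in 393P tumours. Its changes were 0.01 for 344SQ against 393P (interval -0.31 to 0.32, limma adjusted p = 0.986), 0.04 for 344SQ against 393LN (adjusted p = 0.895) and -0.03 for 393LN against 393P (adjusted p = 0.949). Its other probe sets, 1439407_x_at and 1420245_x_at, had differences of 0.04 and -0.16 for 344SQ against 393P and were not called.

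**Figure D4:**
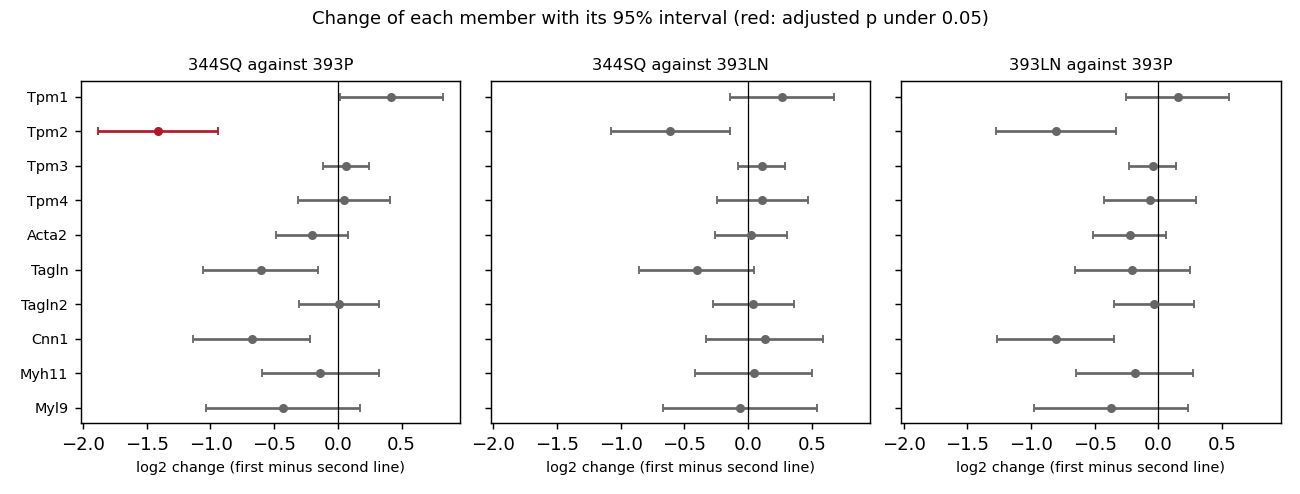
Log2 change of each gene, first line minus second line, in 344SQ against 393P, in 344SQ against 393LN and in 393LN against 393P; points are limma estimates from 4 arrays per line and bars are 95% intervals. Tpm2 at -1.41 in 344SQ against 393P is the 1 change with an adjusted p under 0.05.

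Samples of a line differed from each other in several genes at once. Within 393P, replicate 1 was the lowest of its line for 9 of the 10 genes, all but Tagln, and replicate 2 the highest for 9, all but Tpm3. Within 344SQ, replicate 3 was the highest for 7 genes. Within 393LN, replicate 3 was the lowest for 6. For Myl9 the deviations from the line mean were 0.57 on 344SQ replicate 3, -0.66 on 344SQ replicate 4, -0.44 on 393P replicate 1 and 0.61 on 393P replicate 2. Replicates carry no order, and their numbers do not pair samples across lines.

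**Figure D5:**
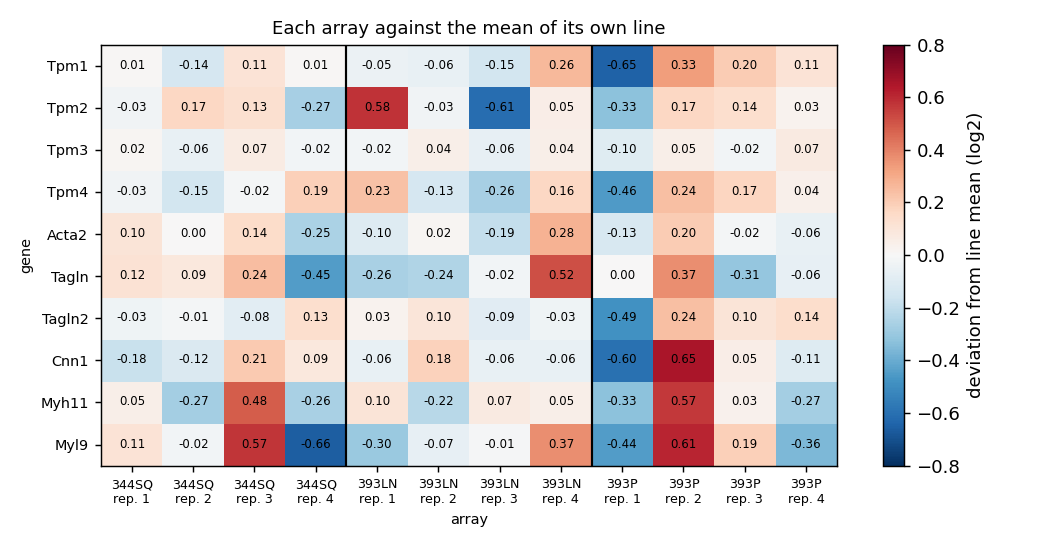
Deviation of each array from the mean of its own line on the log2 scale, for the 10 genes in rows and the 12 arrays in columns, with lines separated by black bars. Most genes are low on 393P replicate 1 and high on 393P replicate 2, and Tpm2 is 0.58 above its line mean on 393LN replicate 1 and 0.61 below it on 393LN replicate 3.

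Other smooth muscle genes gave 0 higher and 3 lower of 24 measured in 344SQ against 393P tumours, a share of 12.5% beside 10.5% of all genes, with a median change of -0.06. Ppp1r12b, a myosin phosphatase targeting subunit of muscle, averaged 8.05 ± 0.08 in 344SQ, 8.44 ± 0.38 in 393LN and 9.01 ± 0.13 in 393P tumours (SD, n = 4 each). It was 0.95 lower on the log2 scale in 344SQ than in 393P tumours (change -0.95, limma adjusted p = 0.00298), but with the mean of all its probe sets the change was -0.29 (adjusted p = 0.218). Ppp1r14a, a phosphorylation-dependent inhibitor of myosin phosphatase, changed by -1.35 (limma adjusted p = 0.0150). Actg2, the enteric smooth muscle actin, read 7.08, 7.66, 7.62 and 6.86 in 344SQ and 8.29, 9.12, 8.07 and 8.27 in 393P tumours. Its change of -1.13 (limma adjusted p = 0.0334) lost its call without any 1 of 5 of the 12 arrays, with an adjusted p of up to 0.0905. In limma, 0 of the 24 were called in 344SQ against 393LN and 0 in 393LN against 393P.

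Of 26 measured actin and non-muscle myosin genes, the 344SQ against 393P test called 2 higher and 2 lower, or 15.4% beside 10.5% of all genes. Cfl2, a muscle-type cofilin that severs actin filaments, was higher in 344SQ tumours by 1.05 (limma adjusted p = 0.000309), and Pdlim5, a Z-disc adaptor, by 0.77 (adjusted p = 0.0187). Myh14, a non-muscle myosin heavy chain common in epithelia, read 8.36, 8.33, 8.50 and 7.92 in 344SQ, 8.65, 8.35, 8.80 and 8.16 in 393LN, and 9.51, 9.71, 9.70 and 9.75 in 393P tumours. All 8 344SQ and 393LN values were below all 393P values. Myh14 fell in 344SQ against 393P (change -1.39, limma adjusted p = 0.000163) and in 393LN against 393P (change -1.17, adjusted p = 0.00453). Zyx, the focal adhesion protein zyxin, fell in 344SQ tumours against 393P (change -0.96, limma adjusted p = 0.000844) and against 393LN (change -0.66, adjusted p = 0.00967).

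In 344SQ against 393LN tumours 4 of the 26 were higher and 2 lower, or 23.1% beside 10.9% of all genes. Vcl, the adhesion protein vinculin, read 13.05, 13.16, 13.05 and 13.27 in 344SQ and 12.40, 12.47, 12.32 and 12.51 in 393LN tumours. Its change was 0.71 (limma adjusted p = 0.000637), and 0.61 with the mean of its probe sets (adjusted p = 0.231). Pdlim5 changed by 0.96 (limma adjusted p = 0.00666). Tmod4, a skeletal muscle tropomodulin that caps filaments, changed by -0.41 (limma adjusted p = 0.0314), a call lost without any 1 of 6 arrays. In 393LN against 393P tumours 2 were higher and 2 lower, or 15.4% beside 2.45% of all genes. Of these, Cfl2 at 0.57 (limma adjusted p = 0.0410) and Vcl at -0.40 (adjusted p = 0.0460) each lost the call without any 1 of 10 arrays. With the mean of its probe sets Vcl was -0.19 (adjusted p = 0.841), and of 10 other settings 5 ended the Vcl call and 3 the Cfl2 call.

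Markers of stromal cells that could carry the contractile genes were set beside them. Of 11 pericyte markers, 1 was lower in 344SQ than in 393P tumours, Notch3 with a change of -0.66 (limma adjusted p = 0.0072), and 1 was lower in 344SQ than in 393LN tumours, Mcam with -0.99 (adjusted p = 0.0163). Each is 9.09% of the list, beside 10.5% and 10.9% of all genes, and 0 were called in 393LN against 393P, beside 2.45%. The median change of the 11 was -0.22 for 344SQ against 393P, -0.06 for 344SQ against 393LN and -0.17 for 393LN against 393P. Summed intensities of these markers ranged over 6205 to 9918 in 344SQ, 7142 to 9070 in 393LN and 6436 to 10593 in 393P tumours, so the lines overlapped. None of the 11 was at the floor on any array.

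Of 12 fibroblast markers, 0 were called in limma in any comparison, beside the same shares of all genes. Their median change was 0.38 for 344SQ against 393P, 0.41 for 344SQ against 393LN and -0.00 for 393LN against 393P. All 12 had higher means in 344SQ tumours, by 0.17 to 0.83 against 393P and 0.18 to 0.64 against 393LN. Their summed intensities ranged over 67784 to 78475 in 344SQ, 47263 to 70143 in 393LN and 48104 to 64083 in 393P tumours. The 344SQ and 393P sums did not overlap. Of 9 endothelial markers, 0 were called in limma, with median changes of 0.03, -0.08 and 0.08. All 9 leukocyte markers had lower means in 344SQ tumours, by changes of -0.92 to -0.055 against 393P (median -0.64) and -0.66 to -0.055 against 393LN (median -0.53). The 1 called was Tyrobp, in both comparisons, or 11.1% of the list beside 10.5% and 10.9% of all genes. Summed leukocyte intensities ranged over 12256 to 27192 in 344SQ, 20638 to 32661 in 393LN and 24418 to 36263 in 393P tumours. The part of any of these cells in the contractile gene values was not tested.

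Genes most like Tpm2 and Acta2 over the 12 arrays were named by Pearson correlation of log2 values among 8896 genes, those in the upper part of the brightness range. Ppp1r12b was most like Tpm2 (r = 0.97), followed by Prss27 (r = 0.96) and Rps4l (r = 0.95). Olfm1 was most like Acta2 (r = 0.89), followed by Was and Ripk3 (both r = 0.85). The 12 points share line and array, so these are descriptions of which profiles ran together.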

How the data were processed

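The deposited table held 12 arrays and 45101 probe sets as linear intensity values, per the file headers; no source used here names the authors' summary and normalization software. Every value was 2 raised to a power with 2 decimals, and the lowest intensity was 1. Arrays carry no read depth, so their number limits the precision. Probe sets were named through the platform annotation, and 34945 had 1 symbol, 932 several and 9160 none. One mean per line was fitted with limma 3.58.1 (lmFit, eBayes) in R 4.3.3 to log2(intensity + 16), with 9 residual degrees of freedom and Benjamini-Hochberg adjustment. Tested on simulated data with 200 changed genes of 18193, the fit recovered 82% of 2-fold and 97% of 4-fold changes for 344SQ against 393P. The other comparisons recovered 78% to 79.8% of 2-fold changes. Of the calls, 5.56% were false for 344SQ against 393P, 5.39% for 344SQ against 393LN and 4.93% for 393LN against 393P. The changed genes were drawn only from brighter genes, and the changes were added on the log2(intensity + 16) scale. The recovered shares therefore do not cover dim genes such as Cnn1. Noise was drawn independently for each gene, and fewer genes were changed than the 1907 called in 344SQ against 393P. The simulated shares may therefore differ from those in these data. Alternatives changed the scaling, pseudocount, dim filter, probe set rule, prior and arrays.

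The genes and the lists of other genes were chosen with earlier results of these data known. Every gene of the 10 is named, and of each other list up to 3 called genes with the smallest p in a comparison, plus up to 2 in the minority direction. One of these lists is not reported here.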

Additional observations from a re-analysis of the deposited data

Results flagged for a closer look

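Among 75 groups of 4 samples (25 probe sets in 3 lines), 8 held a sample far from the other 3 of its line by Dixon's criterion, which chance meets in about 1 group in 20. On 393P replicate 1, Tpm1 probe set 1423049_a_at read 9.79 (11.78 to 12.10 on the others). On the same array Tpm3 probe set 1427567_a_at read 9.65 (12.30 to 12.44) and Tpm3 probe set 1427260_a_at read 13.22 (13.45 to 13.46). This is the array with the actin 3′ to 5′ ratio of 1.47. Tpm2 probe set 1449577_x_at read 7.71 on 344SQ replicate 4 (8.32 to 8.40 on the others). Tpm1 probe set 1447713_at read 7.36 on 393LN replicate 3 (6.15 to 6.31). Myh11 probe set 1448962_at read 6.90 on 393LN replicate 2 (7.17 to 7.22). Cnn1 read 4.33 on the same array, where the other 3 were at the floor of 4.09, so any value above the floor would meet the criterion there and the chance rate does not apply to that group. Acta2 probe set 1444105_at read 5.91 on 344SQ replicate 1 (6.20 to 6.22). The part of RNA quality in these values was not tested.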

How the results depend on the processing

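The lower Tpm2 of 344SQ against 393P kept its sign and its call under every alternative run, with changes of -1.42 to -1.31 outside the leave-one-out fits. No paired analysis was possible because the labels give no replicate numbers that link samples across lines. With the fit adjusted over all probe sets, 1345 probe sets were higher in 344SQ against 393P and 482 in 393LN against 393P, where more features were tested. With arrays of both lines only, 118 genes were higher and 56 lower in 393LN against 393P, with fewer arrays. The count of the 10 genes lower in 393LN against 393P became 1 with a pseudocount of 1 (Cnn1, -2.52, adjusted p = 0.0495) and 1 without the dimmest 50% of genes (Tpm2, -0.80, adjusted p = 0.0424, fewer genes tested). In 344SQ against 393LN, 1 further probe set (Tpm2 1425028_a_at) was lower with median centring, without the dimmest 25% or 50%, or with a trended robust prior.

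Changes near 0 turned sign, as did the Acta2 change of -0.20 in 344SQ against 393P. With the mean of all probe sets, 344SQ against 393P was 0.034 for Acta2 and -0.037 for Tagln2. With the same mean, 344SQ against 393LN was -0.014 for Myh11, and 393LN against 393P was 0.041 for Tpm3. This mean weights probe sets equally, and the dim Acta2 probe sets 1456658_at and 1444105_at changed by 0.41 and -0.10 in 344SQ against 393P. With quantile normalization, Tagln2 was -0.0098 in 344SQ against 393P and Myl9 was 0.0077 in 344SQ against 393LN. The cause was not tested.

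Leaving out each array in turn, genes higher and lower ranged over 565 to 903 and 654 to 1053 in 344SQ against 393P, 427 to 922 and 740 to 1559 in 344SQ against 393LN, and 105 to 311 and 48 to 166 in 393LN against 393P. The 10 genes lower ranged over 1 to 2, 0 to 1 and 0 to 1, and further probe sets lower in 344SQ against 393LN over 0 to 1. In 344SQ against 393P, leave-one-out changes ranged over -0.10 to 0.13 for Tpm4, -0.15 to 0.088 for Tagln2 and -0.30 to 0.049 for Myh11. In 344SQ against 393LN they ranged over -0.81 to -0.42 for Tpm2, -0.042 to 0.11 for Acta2, -0.0025 to 0.075 for Tagln2, -0.12 to 0.13 for Myh11 and -0.25 to 0.16 for Myl9. In 393LN against 393P they ranged over -0.996 to -0.60 for Tpm2, -0.063 to 0.26 for Tpm1, -0.21 to 0.026 for Tpm4, -0.20 to 0.046 for Tagln2, -0.29 to 0.0041 for Myh11, -0.14 to 0.63 for Tpm1 1423049_a_at and -0.17 to 0.76 for Tpm3 1427567_a_at. The dim filters removed Cnn1 at 25% and 50% and Myh11 at 50%, which gave no value there.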

Other observations

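Marker lists of other cells in the same tumours were tested with limma, where 10.5% of all genes were called in 344SQ against 393P and 10.9% in 344SQ against 393LN. Of 6 platelet markers, 1 was called, the platelet chemokine Ppbp, lower in 344SQ than in 393P tumours with a change of -2.05 (16.7% of the list). Of 9 leukocyte markers, 1 was called, the myeloid and natural killer adaptor Tyrobp, lower in 344SQ tumours with changes of -0.92 against 393P and -0.59 against 393LN (11.1% of the list in each). Of 6 epithelial markers, 1 was called, the adhesion protein Epcam, lower in 344SQ tumours with changes of -3.82 against 393P and -3.64 against 393LN (16.7% of the list in each). Of 7 lung epithelial markers, 1 was called, the surfactant protein gene Sftpb, higher in 344SQ tumours with changes of 5.23 against 393P and 5.31 against 393LN (14.3% of the list in each). No gene of these lists was called in 393LN against 393P tumours, where 2.45% of all genes were called.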
